A study of Mus musculus with 24 samples.

Results

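The 10 genes described here, Gad1, Gad2, Slc32a1, Pvalb, Sst, Vip, Lamp5, Reln, Calb2 and Lhx6, are commonly used to mark inhibitory interneurons and were taken by name from the 53379 genes of the count table. All 10 were detected in every library and all 10 passed the filter on low counts, among 37598 genes tested. They were followed in neurons and in glia after kainic acid and after saline, as a readout of interneuron loss or change in early epileptogenesis.

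Inhibitory interneurons of the hippocampus release GABA, which the enzymes encoded by Gad1 and Gad2 make from glutamate and which the transporter encoded by Slc32a1 loads into synaptic vesicles. The remaining genes divide interneurons into classes: fast-spiking basket and axo-axonic cells (Pvalb), dendrite-targeting cells (Sst), interneuron-selective and basket cells (Vip, Calb2) and neurogliaform cells (Lamp5, Reln), while Lhx6 is the transcription factor of interneurons born in the medial ganglionic eminence. Loss of hilar somatostatin interneurons and reorganization of inhibition are well known in models of temporal lobe epilepsy. Reln and Calb2 are also expressed by Cajal-Retzius cells, which persist in the adult hippocampus around the hippocampal fissure, and Calb2 also by mouse mossy cells.

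Adult male C57/BL6N mice, acquired at 8 weeks of age and acclimatized for 4 weeks, received kainic acid (KA) or saline (sham, SH) into the deep cortex above the right hippocampus under the same anesthesia and analgesia, and KA mice without convulsive seizures were excluded. Right hippocampi were taken 24 hours after status epilepticus, 8 mice per treatment were combined into 3 pools, and nuclei of each pool were sorted with an antibody to NeuN into NeuN+ nuclei (neurons) and NeuN- nuclei (glia), giving the 4 groups SH neurons, KA neurons, SH glia and KA glia with 3 libraries each. Sample 1 of each treatment pooled 4 mice and samples 2 and 3 pooled 2 mice each, a numbering taken here to be that of the replicates. The RNA is nuclear, and NeuN- means the absence of 1 neuronal antigen rather than the presence of a glial one. SH glia replicate 1 and KA glia replicate 2 were amplified from 0.05 ng RNA with 15 PCR cycles, and the other 10 libraries from 1 ng with 10 cycles.

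Libraries held between 7769400 and 40364768 counts (median 21380824.5). The 4 libraries of replicate 3 stood apart: they were deep (28721556 to 40364768 counts against 7769400 to 30114850 in the other 8) and yet held 36165 to 42160 detected genes against 40660 to 47748. Values below are CPM (counts scaled to a library of fixed size with TMM factors over the 12 libraries). Changes are log2 fold changes of KA against SH (logFC) tested with edgeR (quasi-likelihood, 4 group means), and a change was called at a false discovery rate (FDR) below 0.25 over all genes tested, the threshold of the study. The common biological coefficient of variation was 0.674, so a change has to be large or steady to be called with 3 libraries per group.

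In the mouse genome (GRCm38, GENCODE M21) 5 of the 10 genes lie on chromosome 2: Gad1 at chr2:70553072-70602014, Gad2 at chr2:22622205-22693874, Slc32a1 at chr2:158610767-158615748, Lamp5 at chr2:136052239-136069917 and Lhx6 at chr2:36081953-36105408. The others are Pvalb at chr15:78191114-78206400, Sst at chr16:23889573-23890958, Vip at chr10:5639218-5647617, Reln at chr5:21884454-22344702 and Calb2 at chr8:110137502-110168210. They range from Sst, with 721 exon bases in 2 exon blocks, to Reln, with 23738 exon bases in 67 exon blocks. Reads were counted without strand and reads shared by genes were left out, which touches Slc32a1 most, since 24.9% of its exon bases are also covered by Gm14205 on the opposite strand, against 1.04% for Reln (Gm10475, opposite strand), 2.16% for Lhx6 (Gm27953, same strand) and 0% for the other 7.

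Sst and Vip encode neuropeptides whose promoters are textbook targets of the cAMP response element (CRE) and its binding protein CREB, an activity-dependent factor. The stretches around the CRE letters are shown to let a reader see which of the 10 genes carry them, and no level given below was tested against them. The promoter windows of RefSeq (GRCm38.p6, 250 bases before to 50 bases after a start) that were matched by symbol covered 9 of the 10 genes in 13 windows, and were searched on both strands for the full element TGACGTCA and for its first letters TGACG, which the full element contains. Capitals mark the matched letters, and CGTCA is TGACG read on the opposite strand.
Sst (chr16:23890875-23890902, minus strand, element from position -48 to the start): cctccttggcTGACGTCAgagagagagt
Vip (chr10:5639129-5639153, plus strand, from position -79): atcactactgTGACGtctttcgggg
Gad2 (chr2:22622284-22622308, plus strand, from position -33): atttcccttcCGTCActctctcatc
The full element stood in 1 of the 13 windows, that of Sst, and in 1.79% of all 32851 windows. The shorter letters stood in 3 of the 13 (Sst, Vip and Gad2), or 23.1%, and in 20.8% of all windows. These are letter matches, and binding was not measured.

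Per kilobase of exon, Sst was the most abundant of the genes in neurons at 151 ± 86.3 CPM per kb (SD, n = 6 NeuN+ libraries). It was followed by Gad1 (23.4 ± 4.11), Vip (18.7 ± 7.98), Lamp5 (16.1 ± 6.08) and Gad2 (13.8 ± 4.44), and then by Calb2 (4.73 ± 1.33), Slc32a1, Reln (3.15 ± 0.683), Pvalb (3.09 ± 1.56) and Lhx6 (2.89 ± 0.914) on the same scale. The ranges of neighbours in this order overlapped except between Sst and Gad1 and between Gad2 and Calb2, so the genes fell into 1 abundant peptide, 4 genes of middle level and 5 of low level. Pvalb, the calcium buffer of fast-spiking cells, rested on only 37 to 101 counts per NeuN+ library and 10 to 63 per NeuN- library.

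**Figure D1:**
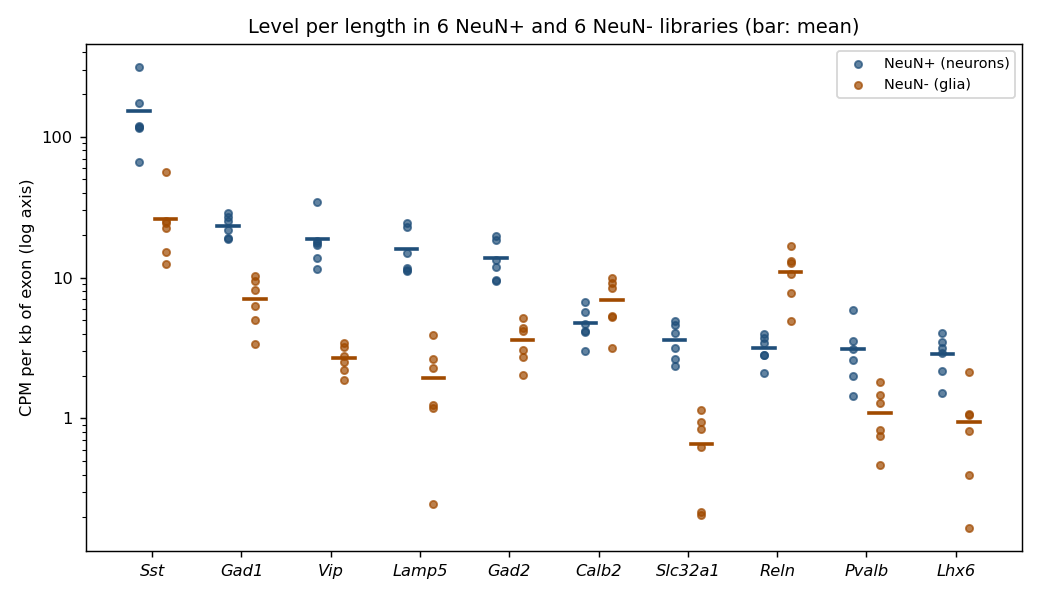
Level of the 10 genes in CPM per kb of exon (log axis) in the 6 NeuN+ libraries (blue) and the 6 NeuN- libraries (orange), each point 1 library and each bar the mean, ordered by the NeuN+ mean. Sst was highest in both fractions, and Reln and Calb2 had the higher mean in NeuN-.

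The labels of the sort were checked against marker genes: Rbfox3, which encodes NeuN, stood at 161 to 274 CPM in NeuN+ and at 17.7 to 56.9 CPM in NeuN- libraries, and 6 oligodendrocyte genes summed to 138 to 1252 CPM and to 7326 to 29206 CPM. The sort separated 8 of the 10 genes towards the NeuN+ side and the other 2 towards the NeuN- side. NeuN+ levels were higher for Lamp5 (logFC of NeuN+ against NeuN- 3.01, SE 0.43), Vip (2.79, SE 0.29), Sst (2.61, SE 0.38), Slc32a1 (2.51, SE 0.42), Gad2 (1.92, SE 0.26), Gad1 (1.71, SE 0.29), Lhx6 (1.63, SE 0.46) and Pvalb (1.42, SE 0.49). NeuN- levels were higher for Reln (-1.78, SE 0.29) and Calb2 (-0.49, SE 0.25). All 10 passed an FDR of 0.25 in edgeR, and 29.5% of all genes tested did, with 18.6% higher in NeuN+ and 10.9% in NeuN-. At an FDR below 0.05 all but Pvalb (0.0546) and Calb2 (0.242) passed, against 18.5% of all genes. In this fit, which leaves out the pairing of fractions by pool, the calls of these last genes rest on single libraries. Pvalb did not pass 0.25 without SH glia replicate 1 (logFC 1.07, FDR 0.273). Calb2 did not pass it without any 1 library other than SH glia replicate 1 or KA glia replicate 1 (logFC -0.41 to -0.60, FDR 0.282 to 0.462). Nor did Calb2 pass it without the filter on low counts. With the pool as a block in edgeR, all 10 genes passed an FDR of 0.25, each with an unadjusted p under 0.05.

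The interneuron genes were not absent from glia. Within a pool, the NeuN- level was a median of 31.8% of the NeuN+ level for Gad1, 22.8% for Gad2, 20.5% for Slc32a1, 39.0% for Pvalb, 24.6% for Lhx6, 19.4% for Sst, 14.8% for Vip and 11.4% for Lamp5, each over 6 pools and below 100% in all 6. For 8 pan-neuronal genes the median of the gene medians was 24.1%, with 7 of them between 16.2% and 28.0% and Tubb3, neuronal beta-tubulin, at 97.4%. The medians of Sst, Slc32a1, Gad2 and Lhx6 lay within the range of those 7 genes, those of Vip and Lamp5 below it and those of Gad1 and Pvalb above it. Whether the NeuN- values came from NeuN- interneurons or from carry-over of NeuN+ RNA was not tested. In bulk libraries, fewer cells of a type and less RNA per cell cannot be told apart.

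Reln, the secreted glycoprotein that guides neuronal positioning, stood at 50.2, 67.4 and 81.3 CPM in SH neurons and at 67.2, 87.8 and 94.4 CPM in KA neurons, in the order of replicates 1 to 3. In SH glia it stood at 250.5, 302 and 401 CPM and in KA glia at 185, 116 and 314 CPM. Every NeuN- library thus held more Reln than every NeuN+ library, with a median of 390% of the NeuN+ level of the same pool. Calb2, which encodes the calcium buffer calretinin, had a smaller excess in NeuN-, at a median of 138% and between 105% and 180% in single pools.

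Genes of Cajal-Retzius cells were on the same side as Reln. Of the 5 listed, all 5 were higher in NeuN- (FDR below 0.25), where 10.9% of all genes were: Lhx1 (logFC of NeuN+ against NeuN- -3.46), the p53 relative Trp73 (-2.44), Lhx5 (-2.03), Nhlh2 (-1.84) and Ebf3 (-1.59). Their median NeuN- level was 479% of the NeuN+ level, with gene medians from 367% to 1688%, and their summed level was 55.0 to 89.6 CPM in NeuN- libraries against 9.81 to 24.95 CPM in NeuN+ libraries. Ndnf, a gene shared by neurogliaform and Cajal-Retzius cells, was also higher in NeuN- (logFC -2.33, FDR 1.37e-05). These values stand beside those of Reln and Calb2, and the part of any cell type in them was not tested.

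**Figure D2:**
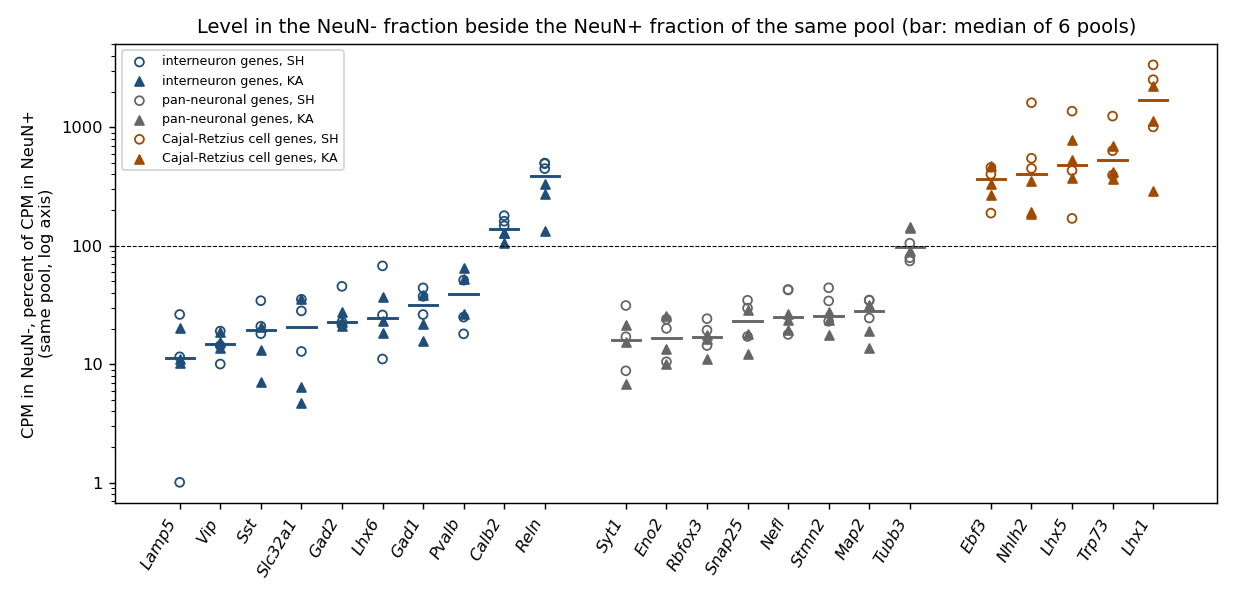
CPM in NeuN- as a percentage of CPM in NeuN+ of the same pool (log axis) for the 10 interneuron genes, 8 pan-neuronal genes and 5 Cajal-Retzius genes, with open circles for SH pools, triangles for KA pools and a bar for the median of 6 pools. Of the interneuron genes, 8 lay below 100% in every pool, and Reln and Calb2 lay above it in every pool together with the Cajal-Retzius medians.

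In neurons, none of the 10 genes was called changed 24 hours after status epilepticus. The edgeR test called 0 of 10 at an FDR below 0.25, where 0.340% of all genes were called (0.279% higher and 0.0612% lower in KA), and 0 of 10 had an unadjusted p under 0.05. DESeq2 and limma voom also called 0 of 10. Of the 10, 3 had a positive and 7 a negative logFC, with a median of -0.20 against 0.00 over all genes, and the summed level of the 10 genes was 430 to 703 CPM in SH neurons and 541 to 633 CPM in KA neurons. Of 9 excitatory neuron genes, 7 also had a negative logFC in neurons (median -0.21), and of 8 pan-neuronal genes 4 did (median -0.06). The 95% confidence interval (CI) of each of the 10 logFC included 0.

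The general GABA genes differed among themselves. Gad1 encodes the larger, constitutively active glutamate decarboxylase and stood at 147, 143 and 193 CPM in SH neurons and at 165, 218 and 205 CPM in KA neurons (replicates 1 to 3). KA libraries were higher in all 3 pairs, though the groups overlapped, and the logFC was 0.29 (SE 0.40, 95% CI -0.55 to 1.12).

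Gad2, the smaller and more activity-regulated decarboxylase, stood at 55.4, 56.6 and 78.8 CPM in SH neurons and at 70.2, 117 and 109 CPM in KA neurons. It was higher in KA in all 3 pairs, by 1.27, 2.06 and 1.38 times, with SH replicate 3 above KA replicate 1. It had the largest positive logFC of the 10 genes at 0.63 (SE 0.36, 95% CI -0.13 to 1.39, FDR 1.00), which is 1.55-fold with an interval of 0.914 to 2.63. With the replicate number as a block the interval was 0.09 to 1.14 and the FDR 0.455, so it was not called either. A rise in all 3 pairs of neurons was seen in 17.3% of all genes.

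Slc32a1, the vesicular GABA transporter, stood at 13.8, 6.62 and 11.3 CPM in SH neurons and at 12.9, 8.88 and 7.45 CPM in KA neurons. The groups overlapped and the logFC was -0.12 (SE 0.56, 95% CI -1.31 to 1.07), which turned to 0.11 on leaving out SH neurons replicate 1 and to 0.040 on leaving out KA neurons replicate 3. Across the 6 NeuN+ libraries Gad1 and Gad2 went together (Pearson's r of log2 CPM 0.97), whereas Slc32a1 did not follow them (r = -0.17 and -0.31) and went with Sst (r = 0.87). With each library left out in turn r stayed between 0.95 and 1.00 for Gad1 and Gad2 and between 0.77 and 0.92 for Slc32a1 and Sst, whereas for Slc32a1 it ran from -0.86 (Gad1) and -0.93 (Gad2) without SH neurons replicate 2 to 0.15 and -0.030 without SH neurons replicate 1. These correlations describe 6 libraries that also differ in depth and treatment.

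Lamp5, a membrane protein of neurogliaform cells, showed the cleanest separation in neurons. It stood at 71.8, 43.9 and 67.2 CPM in SH neurons and at 34.1, 32.9 and 33.3 CPM in KA neurons, so that every KA library lay below every SH library and the KA libraries were close to each other. The logFC was -0.87 (SE 0.57, 95% CI -2.07 to 0.33, FDR 1.00), or 0.548 times the SH level with an interval of 0.239 to 1.26. This SE comes from the fit of both fractions together and so also holds the spread of Lamp5 in glia. KA libraries lay below SH libraries without overlap in 4.45% of all genes. When neurons were fitted on their own with their own TMM factors, Lamp5 was the only 1 of the 10 genes to be called (logFC -0.88, FDR 0.237), where 2.05% of the 32012 genes of that fit were called and 0.772% were called lower.

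Calb2 also separated without overlap. It stood at 9.99, 8.14 and 11.8 CPM in SH neurons and at 5.21, 7.15 and 7.25 CPM in KA neurons, with a logFC of -0.60 (SE 0.36, 95% CI -1.36 to 0.16, FDR 1.00). Relative to Gad1 of the same library, Calb2 was 0.0620 ± 0.00564 in SH neurons and 0.0332 ± 0.00198 in KA neurons, and Lamp5 was 0.382 ± 0.0958 and 0.173 ± 0.0292 (SD, n = 3 each). No test was made of these ratios.

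Sst, the peptide of dendrite-targeting interneurons, stood at 225, 47.4 and 86.6 CPM in SH neurons and at 126, 83.6 and 84.8 CPM in KA neurons. SH replicate 1 was highest and SH replicate 2 lowest of the 6, so the KA libraries lay inside the SH range. The logFC was -0.29 (SE 0.50, 95% CI -1.35 to 0.77) and turned to 0.55 without SH neurons replicate 1.

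Vip, the peptide of interneuron-selective and some basket cells, had the same high library. It stood at 116, 39.4 and 59.4 CPM in SH neurons and at 46.6, 61.7 and 58.0 CPM in KA neurons, with a logFC of -0.37 (SE 0.38, 95% CI -1.17 to 0.43) that turned to 0.17 without SH neurons replicate 1. Over the 6 NeuN+ libraries Sst and Vip correlated at r = 0.83, which rested on SH neurons replicate 1, a pool of 4 mice, since r was 0.44 over the other 5. SH neurons replicate 1 was also the highest NeuN+ library for Slc32a1 (13.8 CPM), Pvalb (6.11 CPM) and Lamp5 (71.8 CPM), and the lowest for Lhx6 (7.26 CPM).

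Pvalb stood at 6.11, 2.70 and 3.67 CPM in SH neurons and at 3.25, 2.08 and 1.50 CPM in KA neurons. KA was lower in all 3 pairs, as in 13.8% of all genes, but KA replicate 1 lay above SH replicate 2. The logFC of -0.87 (SE 0.68, 95% CI -2.32 to 0.57) had the widest interval of the 10 genes.

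The last pair showed little difference or a small rise. Lhx6 stood at 7.26, 15.3 and 19.4 CPM in SH neurons and at 10.5, 14.1 and 16.9 CPM in KA neurons, with the KA libraries inside the SH range and a logFC of -0.02 (SE 0.63, 95% CI -1.34 to 1.31) whose sign depended on which library was left out. Reln was higher in KA neurons in all 3 pairs, by 1.34, 1.30 and 1.16 times, with overlapping groups and a logFC of 0.33 (SE 0.40, 95% CI -0.51 to 1.17).

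**Figure D3:**
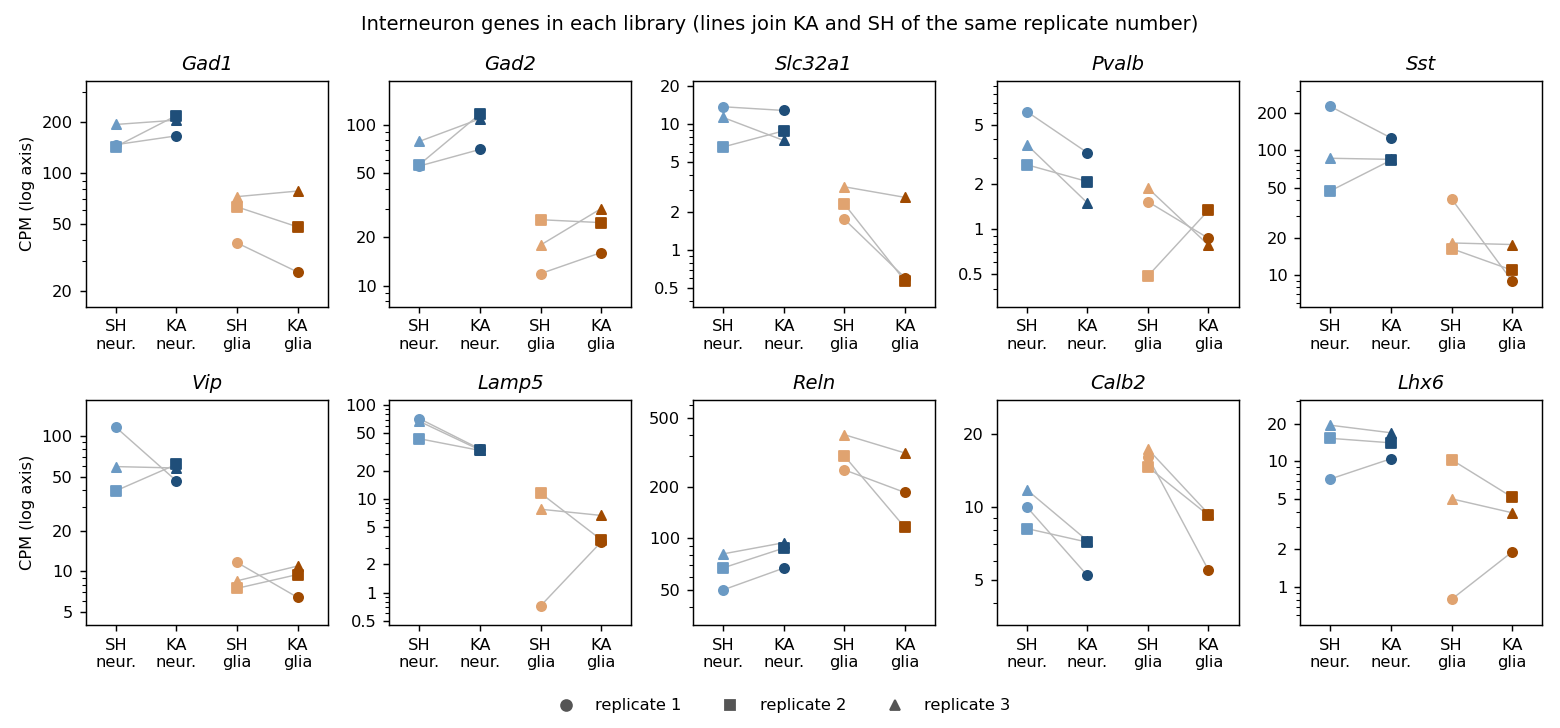
CPM (log axes, which differ between panels) of the 10 genes in each of the 12 libraries, with symbols for the replicate number and lines that join SH and KA libraries of the same number within neurons (blue) and glia (orange). KA lay below SH without overlap for Lamp5 and Calb2 in neurons and for Calb2 in glia, while Sst and Vip spread most among SH neurons.

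In glia, 9 of the 10 genes had a negative logFC, and none was called with 4 group means. The median logFC of the 10 was -0.55 against 0.14 over all genes. The edgeR test called 0 of 10 where 0.747% of all genes were called (0.442% higher and 0.306% lower in KA), with 1 of 10 at an unadjusted p under 0.05. DESeq2 called 1, Calb2 (FDR 0.151), where 5.88% of the 17174 genes it gave an adjusted p were called and 3.76% were called lower, and limma voom called 0. Among genes with at least 10 counts in every library, edgeR called 1 of the 8 that were left, again Calb2, where 6.46% of such genes were called and 4.08% were called lower. The summed level of the 10 genes was 374, 454 and 553 CPM in SH glia and 255, 229 and 474 CPM in KA glia, and in each of the 6 libraries Reln stood higher than the other 9 genes together.

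Since KA and SH libraries of the same replicate number deviated together, the number was also fitted as a block, and with it 3 of the 10 genes were called lower in KA glia, where 7.64% of all genes were called and 4.17% were called lower. These were Calb2 (logFC -1.02, SE 0.33, FDR 0.131), Reln (-0.72, SE 0.24, FDR 0.156) and Slc32a1 (-1.18, SE 0.44, FDR 0.221). In neurons the block called 0 of 10, where 3.05% of all genes were called. The study does not describe its pools as paired.

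Calb2 was the gene of the 3 whose libraries did not overlap. It stood at 16.1, 14.6 and 17.3 CPM in SH glia and at 5.48, 9.22 and 9.35 CPM in KA glia, without overlap and with a logFC of -0.99 (SE 0.36, 95% CI -1.75 to -0.23, FDR 0.673) with 4 group means. Separation of this direction was seen in 3.00% of all genes in glia, and in both neurons and glia, as for Calb2, in 0.840%. Of the 10 genes Calb2 was the 1 that separated in both.

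Reln was lower in KA glia in all 3 pairs, at 0.739, 0.384 and 0.783 times the SH level, with KA replicate 3 inside the SH range. With 4 group means its logFC was -0.63 (SE 0.40, 95% CI -1.47 to 0.21). KA replicate 2, a low-input library, held the lowest value at 116 CPM.

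Slc32a1 stood at 1.77, 2.34 and 3.20 CPM in SH glia and at 0.608, 0.574 and 2.64 CPM in KA glia, or 22, 48 and 107 counts against 7, 15 and 64. It was lower in KA in all 3 pairs, as were 14.3% of all genes, and its logFC with 4 group means was -0.92 (SE 0.59, 95% CI -2.16 to 0.32). The smallest pair difference was in replicate 3, at 0.824 times the SH level.

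Sst was close to the threshold with the block. It stood at 40.8, 16.3 and 18.1 CPM in SH glia and at 8.95, 10.9 and 17.6 CPM in KA glia. It was lower in KA in all 3 pairs, with a logFC of -0.998 (SE 0.51, 95% CI -2.08 to 0.08, FDR 1.00) and, with the block, of -0.90 (FDR 0.258). The high value was SH replicate 1, a low-input library, whose NeuN+ partner was also the highest for Sst.

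For the other 6 genes the KA and SH libraries of glia overlapped. Gad1 stood at 38.5, 62.9 and 72.3 CPM in SH glia and at 25.9, 47.9 and 78.0 CPM in KA glia (logFC -0.19, SE 0.40), and Gad2, with the only positive logFC, at 11.9, 25.7 and 17.9 CPM and at 16.1, 24.7 and 30.1 CPM (0.35, SE 0.36). Vip stood at 11.7, 7.50 and 8.52 CPM in SH glia and at 6.43, 9.48 and 11.0 CPM in KA glia, and Pvalb spanned 0.487 to 1.88 CPM over the 6 libraries. The logFC was -0.03 (SE 0.38) for Vip, -0.38 (SE 0.69) for Pvalb, -0.54 (SE 0.58) for Lamp5 and -0.55 (SE 0.64) for Lhx6. The sign turned without KA glia replicate 1 for Gad1, without SH glia replicate 3 for Pvalb, without replicate 1 of either group for Vip and without SH glia replicate 2 for Lamp5 and Lhx6. For Lamp5 and Lhx6 the SH libraries spanned 0.724 to 11.5 CPM and 0.804 to 10.3 CPM, with the low end in the low-input library SH glia replicate 1, whose 9 and 10 counts were far below the 237 and 212 of SH glia replicate 2.

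Other neuronal genes in glia stand beside these values. Of 8 pan-neuronal genes, 6 had a negative logFC with a median of -0.44 and a summed level of 547 to 1302 CPM in SH glia and 434 to 1306 CPM in KA glia, and of 9 excitatory neuron genes 7 had a negative logFC with a median of -0.59. With 4 group means 0 of these 17 genes were called, and with the block 5 were called lower, where 4.17% of all genes were. Among Cajal-Retzius genes 4 of 5 had a negative logFC, with a summed level of 72.0 to 89.6 CPM in SH glia and 55.0 to 61.5 CPM in KA glia, which did not overlap. Lhx1, a LIM-homeodomain factor of these cells, was the only 1 of the 5 called with the block, and it was lower (logFC -1.71, FDR 0.0308). Lhx5 went the other way, at 1.55, 1.46 and 1.13 times the SH level in the 3 pairs. Ebf3 changed little (logFC -0.10, SE 0.54 with 4 group means). The part of these cells in the values of Reln and Calb2 was not tested.

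**Figure D4:**
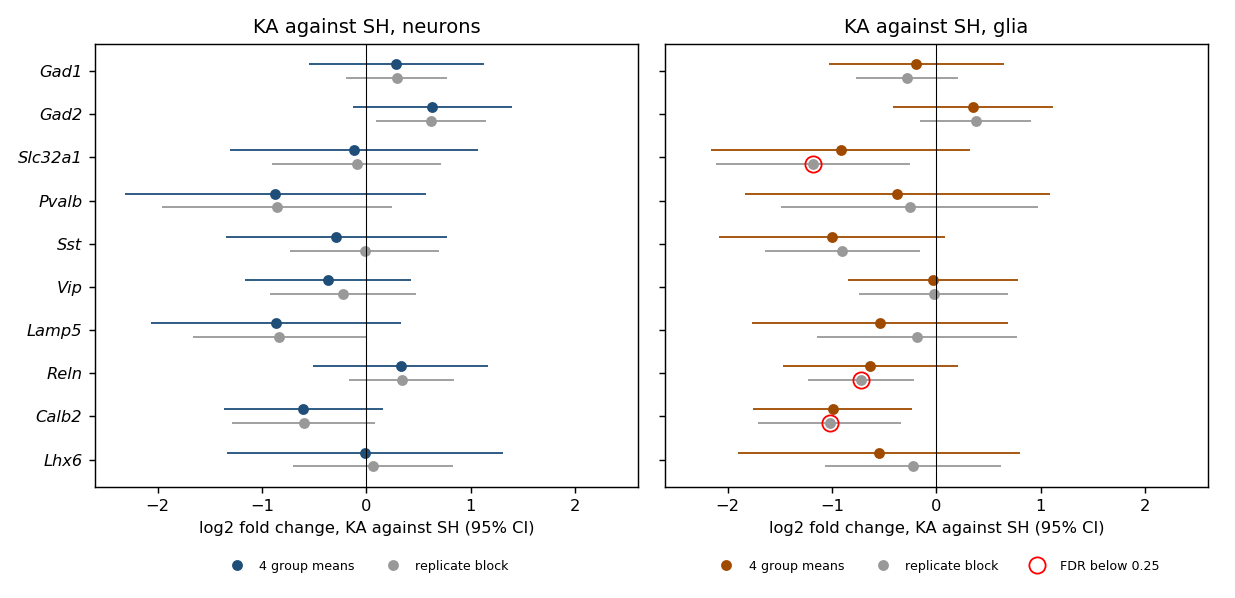
Log2 fold change of KA against SH with 95% confidence interval for the 10 genes in neurons (left) and glia (right), with 4 group means (coloured) and with the replicate block (grey), red rings marking an FDR below 0.25. All intervals of the 4 group means include 0 except that of Calb2 in glia, and rings appear only for Slc32a1, Reln and Calb2 in glia with the block.

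The effect of KA was not shown to differ between neurons and glia for any of the 10 genes. The test of the difference in edgeR called 0 of 10 and 0% of all genes, and 0 of 10 had an unadjusted p under 0.05. Reln had the largest difference, with a logFC 0.96 higher in neurons than in glia (SE 0.56, 95% CI -0.23 to 2.15). For this comparison the block was the pool, which gave a library of each fraction, and not the replicate number. With the block by pool the difference of Reln was 1.06 (SE 0.36, FDR 0.614). A rise in all 3 pairs of neurons with a fall in all 3 pairs of glia, as for Reln, was seen in 1.16% of all genes. With the block by pool 0 of 10 were called, where 0.471% of all genes were.

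Genes around the 10 were read from 7 lists of 47 genes, all tested. With 4 group means 0 of the 47 were called in neurons, and 1 was called in glia, the GABA transporter Slc6a11 of astrocytes. With the block 7 of the 47 were called in neurons (5 higher, 2 lower in KA), where 3.05% of all genes were called, and 10 in glia (4 higher, 6 lower), where 7.64% were. Since 2 of the 7 lists were shortened with values known, these counts describe the genes shown.

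The 10 genes called in glia with the block came from all 7 lists. The 4 higher in KA were Npy (logFC 1.77, FDR 0.0271), Npas1, a transcription factor (0.99, FDR 0.105), Syt2, a vesicle calcium sensor of parvalbumin cell terminals (1.02, FDR 0.232), and Kit, a receptor tyrosine kinase (0.82, FDR 0.231). The 6 lower were Slc6a11, Aldh5a1 and Lhx1, with Cck (-1.05, FDR 0.0622), Kcnc2 (-0.81, FDR 0.0916) and Erbb4, the neuregulin receptor (-0.64, FDR 0.185). Npy stood at 5.71, 2.77 and 2.63 CPM in SH glia and at 8.34, 9.98 and 18.6 CPM in KA glia.

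With the block, the peptide genes Penk and Npy, which interneurons share with other cells, rose in neurons. Penk, which encodes enkephalin and is expressed by some Vip cells and, after seizures, by granule cells, stood at 100.1, 41.0 and 47.4 CPM in SH neurons and at 193, 253 and 359 CPM in KA neurons (logFC 2.09, SE 0.60, FDR 0.469 with 4 group means, and 2.18, FDR 0.0297 with the block). Npy, neuropeptide Y, stood at 50.3, 11.2 and 12.4 CPM in SH neurons and at 69.2, 53.2 and 67.4 CPM in KA neurons (1.36, SE 0.52, and 1.73, FDR 0.0372 with the block). Both were higher in KA in all 3 pairs, as in 17.3% of all genes, and SH neurons replicate 1 was again the highest SH library.

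Of the 7 genes of somatostatin and O-LM cells, which target the outer dendrites of pyramidal cells, 3 were called higher in neurons with the block and 0 lower, namely Npy, Crhbp, the binding protein of corticotropin-releasing hormone (logFC 1.40, FDR 0.0783), and Tacr1, the substance P receptor (1.36, FDR 0.195). Sst itself had a logFC of -0.02 in the same fit. Of the 4 neurogliaform and ivy cell genes, the transcriptional regulator Id2 was called higher (1.43, FDR 0.0866), while Lamp5 had a logFC of -0.84 (FDR 0.617).

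Of the 8 genes of CCK, VIP and interneuron-selective cells, Penk was called higher and Cck lower. Cck, cholecystokinin, which excitatory cells also express, stood at 359, 111 and 144 CPM in SH neurons and at 124, 79.7 and 91.7 CPM in KA neurons (logFC -1.06, SE 0.45 with 4 group means, and -0.88, FDR 0.189 with the block). Of the 6 genes of parvalbumin basket cells, the Kv3 channel gene Kcnc2 was called lower (-0.79 with 4 group means, and -0.73, FDR 0.216 with the block) and 0 higher. With 4 group means, however, 4 of these 6 had a positive logFC in neurons (median 0.08). The highest was that of Tac1 (1.05, SE 0.51), which was lower in KA in 1 of the 3 pairs. Of the 13 interneuron transcription factors listed 0 were called in neurons with either fit, and with 4 group means Dlx6 had the highest logFC of these (0.26, SE 0.62) and Dlx5 the lowest (-0.68, SE 0.93).

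The 4 listed genes that clear and break down GABA all had a negative logFC in neurons (median -0.37) and in glia (median -0.59), with 0 called in neurons in both fits. Slc6a11 stood at 105, 130 and 154 CPM in SH glia and at 60.8, 34.7 and 24.8 CPM in KA glia (logFC -1.70, SE 0.39, FDR 0.128 with 4 group means). With the block Aldh5a1, which oxidizes succinic semialdehyde (-0.71, FDR 0.217), was called lower in glia too. The summed level of the 4 genes was 179 to 255 CPM in SH glia and 87.9 to 124 CPM in KA glia, without overlap.

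Markers of other cells moved in the same fractions and stand beside these values. In NeuN- libraries 0 of the 6 oligodendrocyte genes were called with 4 group means, but their summed level was 13947 to 29206 CPM in SH glia and 7326 to 13642 CPM in KA glia. P2ry12, a receptor of resting microglia (logFC -2.38, FDR 0.0826), and Cspg4, a gene of oligodendrocyte precursors (-1.44, FDR 0.240), were called lower in KA glia, and 0 of 6 astrocyte genes were called with 4 group means. With the block, the fit that called Calb2, Reln and Slc32a1, many more of these genes were called in glia: 4 of 6 oligodendrocyte and 4 of 5 precursor genes lower, 3 of 6 astrocyte genes lower and 1 higher, 2 of 6 microglia genes lower and 1 of 5 endothelial genes higher. Of all genes, 7.64% were called in that fit and 4.17% were called lower. The summed precursor level was 1364 to 2371 CPM in SH glia and 655 to 1355 CPM in KA glia, and the summed astrocyte level 1461 to 2150 CPM and 1016 to 1864 CPM. In NeuN+ libraries the summed astrocyte level was 148 to 499 CPM in SH and 194 to 629 CPM in KA, with Gfap, the reactive astrocyte filament, at a logFC of 1.97 (SE 0.65, FDR 0.731). No gene of the mossy cell list was called in neurons with either fit (median logFC -0.08 with 4 group means). The part of these cells in the results was not tested.

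**Figure D5:**
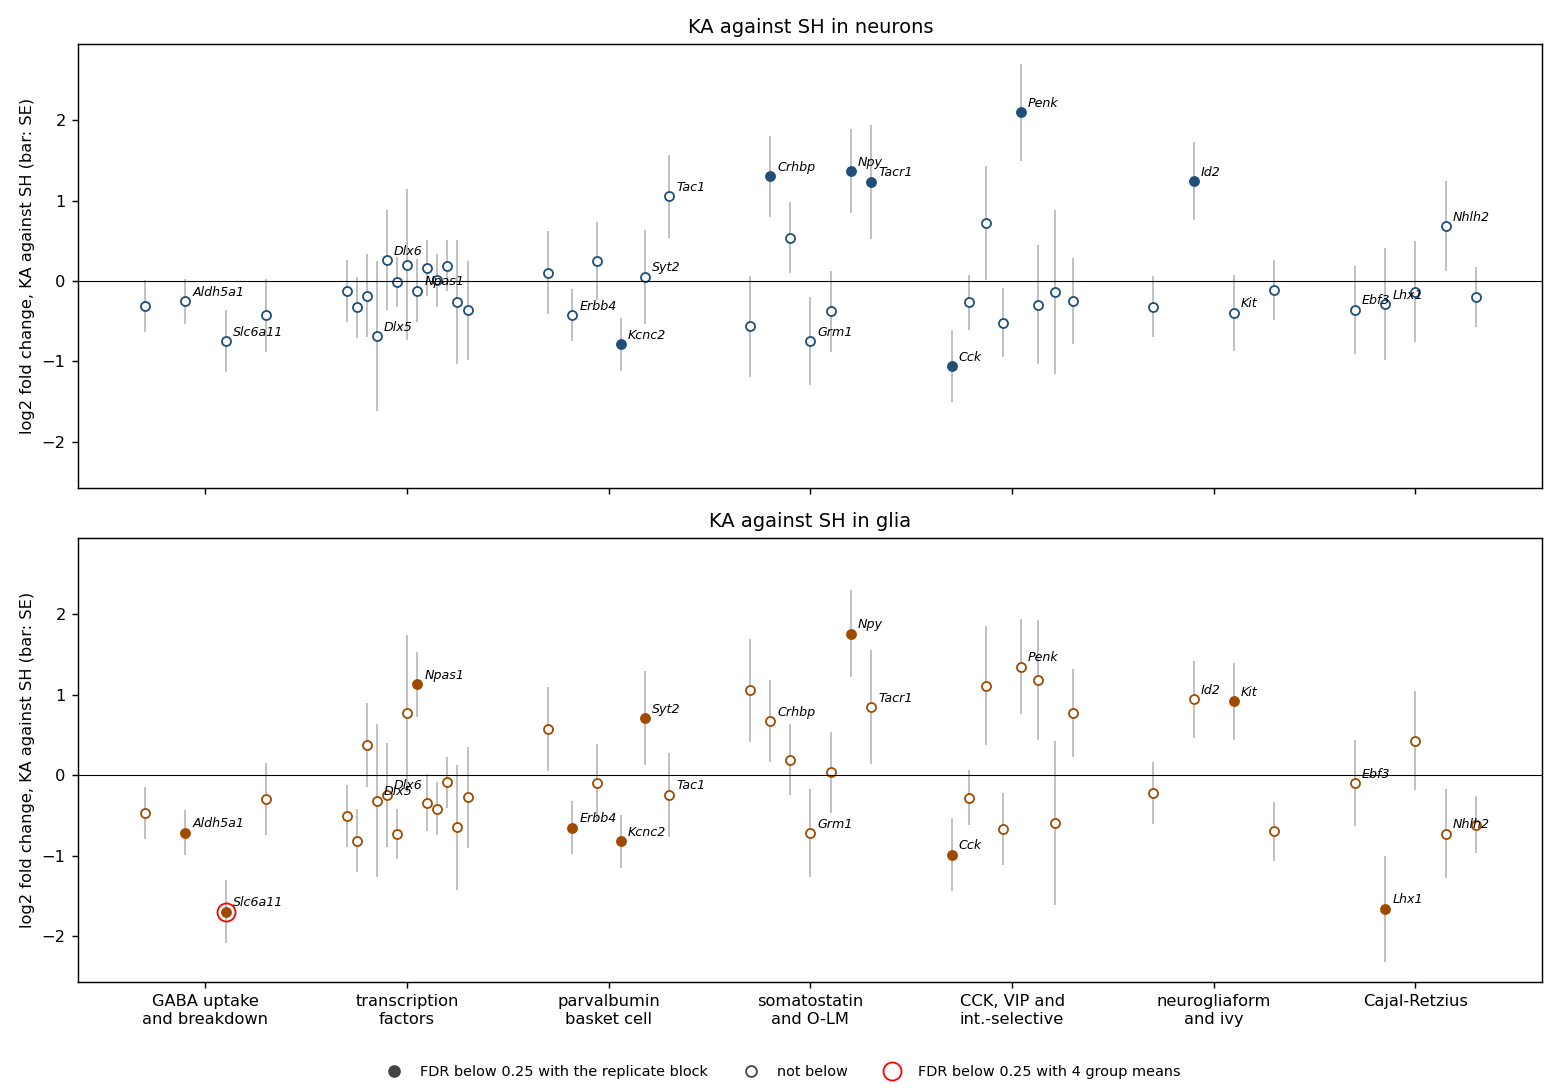
Log2 fold change of KA against SH (bar: SE, 4 group means) for the 47 genes of 7 lists in neurons (top) and glia (bottom), each point 1 gene, filled where the FDR with the replicate block was below 0.25 and ringed in red where that with 4 group means was. Penk, Npy, Crhbp, Tacr1 and Id2 lie above 0 and Cck and Kcnc2 below 0 among the filled points of neurons, and Slc6a11 in glia is the only ringed point.

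The genes most like the general GABA genes over the 6 NeuN+ libraries, by Pearson's r of log2 CPM with the mean of Gad1, Gad2 and Slc32a1 among 12224 protein-coding genes with at least 5 CPM, were Pcdhb21 (r = 0.98), Smoc2 (0.97), Socs5 (0.97), Loxl1, Hrh3, Adipor2, Alkal2, Chmp4c, Prrx1 and Slc27a3 (r from 0.95 to 0.96). Among the 3 most like each other gene were Hnmt, Nek7 and Mroh8 for Pvalb, Smarca5 and Nbdy for Sst, Prdx3, Qpct and Arxes2 for Vip, Gstm6, Fam213a and Npy2r for Lamp5, Timp3, Phyhd1 and Arnt2 for Reln, Pink1, Qdpr and 1810010H24Rik for Calb2, and Ep300, Sned1 and Paox for Lhx6, with r between 0.97 and 1.00. With 6 libraries and this many genes, values near 1 come readily, and the libraries also differ in depth and treatment.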

How the data were processed

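Nuclear mRNA of 12 libraries (3 pools each of SH neurons, KA neurons, SH glia and KA glia) was analysed. RRBS data were not used here. The authors trimmed reads with Trim Galore 0.4.3, aligned them to mm10 with Rsubread and counted uniquely mapped reads per gene with featureCounts (default parameters, GENCODE M16), and the deposited values are raw counts per gene and library. Which library was run on which sequencer, and the number of mice in each pool, did not enter the fits. In the main fit the p-values of KA against SH reflect the spread between pools of mice, estimated for each gene over both fractions together. The SE and CI of a gene in neurons thus also carry its spread in glia, and the reverse. For all comparisons this fit took the libraries as independent. It left out that each pool gave a library of each fraction, which matters most for NeuN+ against NeuN- and for the difference of the KA effect.

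Symbols and positions were taken from GENCODE M21, and 105 of 53379 genes without a symbol were left out. Genes were filtered with filterByExpr (minimum count 10, minimum total 15), scaled with TMM over the 12 libraries and tested with edgeR 4.0.16 (R 4.3.3, glmQLFit with legacy=TRUE, glmQLFTest) in 1 fit of 4 group means, with Benjamini-Hochberg adjustment and an FDR threshold of 0.25. The SE of a logFC was its size divided by the root of the F statistic. The study treated neurons and glia separately, which was an alternative here.

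The labels give the same replicate numbers to KA and SH. Deviations of same-numbered KA and SH libraries from their group means correlated across genes at 0.399, 0.264 and 0.551 in neurons and 0.457, 0.543 and 0.764 in glia, so the number was fitted as a block beside the model. For the difference and for NeuN+ against NeuN- the block was the pool instead, since each pool gave a library of each fraction. Other alternatives were separate fits, other scalings, filters and tests (DESeq2 1.42.0, limma voom 3.58.1), autosomes only, no low-input libraries, and each library left out in turn.

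The 10 genes and the 15 lists of 97 further genes, written from general knowledge, were chosen with earlier results of these data known. Of the lists, each gene called in neurons or glia and the genes with the highest and the lowest logFC in neurons were to be named; genes called only with the block (Crhbp, Tacr1, Aldh5a1, Lhx1, Npas1, Syt2, Kit, Erbb4), Ndnf and Trp73 were picked after their values were seen. A few genes, 3 of them in the lists, are not reported here and were taken out with their values known, so counts over the lists are descriptions. Plots were made in Python 3.11.15 with matplotlib 3.10.9.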

Additional observations from a re-analysis of the deposited data

Results flagged for a closer look

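Vip in neurons had 1 library far from the others: SH neurons replicate 1 stood at 116 CPM and the other 5 NeuN+ libraries between 39.4 and 61.7 CPM. Sst in glia likewise had SH glia replicate 1, a low-input library, at 40.8 CPM and the other 5 NeuN- libraries between 8.95 and 18.1 CPM. These are 2 of 20 groups of 6 libraries searched with Dixon's criterion, of which chance alone is expected to single out about 1 in 20. For Reln the KA libraries were higher than SH in every pair of neurons and lower in every pair of glia, with a difference of logFC of 0.96 that was tested and did not pass the threshold.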

How the results depend on the processing

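Counts of called interneuron genes moved as follows: with separate fits and TMM factors per fraction, 1 gene was called in neurons (Lamp5) and 0 in glia; with the replicate block, 3 in glia (Slc32a1, Reln and Calb2) and 0 in neurons; with DESeq2, 1 in glia (Calb2); and with at least 10 counts in every library, which left 8 of the 10 genes, 1 in glia (Calb2). DESeq2 gave no adjusted p for Pvalb in glia. The pairing by replicate number, or by pool for the difference and for NeuN+ against NeuN-, changed no other call of these 10 genes. Under the other settings and without each library in turn, 0 genes were called in neurons, glia and the difference, and 9 or 10 of 10 passed for NeuN+ against NeuN- (8 of 8 with at least 10 counts). Separate fits give no value for the difference or for NeuN+ against NeuN-. The cause was not tested.

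A logFC near 0 changed sign for Lhx6 in neurons with the block (0.062), at least 10 counts in every library (0.047) and limma voom (0.069), for Vip in glia with separate fits (0.13), at least 10 counts (0.017), legacy=FALSE (0.031), limma voom (0.041) and no low-input libraries (0.014), and for the difference of Lamp5 without low-input libraries (0.090). Leaving out each library in turn, the logFC in neurons ranged from -0.37 to 0.11 for Slc32a1, -0.67 to 0.55 for Sst, -0.66 to 0.17 for Vip and -0.33 to 0.29 for Lhx6. In glia it ranged from -0.66 to 0.082 for Gad1, -0.78 to 0.010 for Pvalb, -0.21 to 0.29 for Vip, -0.95 to 0.069 for Lamp5 and -0.89 to 0.29 for Lhx6. The difference ranged from -0.023 to 0.50 for Gad2, -0.64 to 0.20 for Vip, -0.93 to 0.10 for Lamp5 and -0.31 to 0.88 for Lhx6. Depth limits the low genes in glia, where single libraries held as few as 7 counts of Slc32a1, 9 of Lamp5 and 10 of Pvalb and of Lhx6.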
